A study of Mus musculus with 2 samples.

Results

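The MHC class II genes were followed through the cell classes of the postischemic mouse kidney. The 7 members, H2-Aa, H2-Ab1, H2-Eb1, H2-DMa, H2-DMb1, Cd74 and Ciita, were found by their symbols among the 32285 genes of the deposited gene list, by a rule that uses no measured value. The data are single-cell RNA-Seq counts from 1 kidney of a Cre- mouse and 1 kidney of a littermate labelled PHDTiEC, which carried the alleles Phd1f/f, Phd2f/f and also Phd3f/f together with Cdh5-CreERT2. In that genotype a Cre recombinase that tamoxifen switches on is driven by the promoter of Cdh5, an endothelial gene, and the 3 floxed genes, also named Egln2, Egln1 and Egln3, encode the oxygen-sensing prolyl hydroxylases. The mice were 8 to 10 weeks old, 1 kidney was clamped for 25 minutes at 37 °C, 4 doses of 3 mg tamoxifen were given after the injury, and the injured kidney was taken on day 14. Each genotype is thus 1 library of 1 mouse, there is no replicate, and all intervals below are 95% intervals that cover counting error only. For this reason no p-value is given for any difference between the libraries. Of each pair of values, the first is that of the Cre- library and the other that of the library labelled PHDTiEC.

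MHC class II molecules carry peptides from digested extracellular protein to the surface of the cell, where CD4+ T cells read them. H2-Aa and H2-Ab1 encode the α and β chains of I-A, and H2-Eb1 the β chain of I-E. Cd74 encodes the invariant chain that blocks the groove until the endosome, and H2-DMa and H2-DMb1 form H2-DM, which exchanges the remnant of the invariant chain for peptide. Ciita encodes the coactivator without which the other members are hardly transcribed. It is made all the time in dendritic cells and B cells, and interferon-γ brings it on in macrophages, endothelium and tubular epithelium.

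Of the members, 5 lie together on chromosome 17 (GRCm38, GENCODE coordinates), with H2-DMa at chr17:34119541-34139101, H2-DMb1 at chr17:34153072-34160230, H2-Ab1 at chr17:34257689-34269419, H2-Aa at chr17:34282744-34287823 on the minus strand, and H2-Eb1 at chr17:34305867-34316674. The other 4 are on the plus strand, and Ciita is at chr16:10480059-10528418 on the plus strand. Promoter windows of 300 bases from RefSeq (GRCm38.p6), 250 before and 50 after the start, were at hand for 4 of the 7 members. The RefSeq starts used for H2-DMb1 and H2-DMa lie downstream of the GENCODE ones, so the H2-DMb1 fragment below is inside the GENCODE gene. The class II promoters are known for an X box, bound by the RFX complex and CREB, and for a Y box with a CCAAT core, bound by NF-Y, and Ciita docks on this assembly. The fragments of 3 windows that hold both are shown, 5′ to 3′ on the strand of the gene, because they are the shared feature by which these genes are switched together. The capitals mark, on the left, a stretch in the X box region and, on the right, the Y box core as read on the other strand (CCAAT, printed ATTGG).
H2-DMb1, chr17:34153091-34153137: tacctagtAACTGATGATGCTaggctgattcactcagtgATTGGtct
H2-Aa, chr17:34287864-34287905: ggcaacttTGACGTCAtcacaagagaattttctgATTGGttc
H2-Eb1, chr17:34305770-34305815: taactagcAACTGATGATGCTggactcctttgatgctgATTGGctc
In H2-DMb1 and H2-Eb1 the left capitals are the same 13 bases, AACTGATGATGCT, which only 3 of 32851 windows held (0.00913%), the third being that of Slc39a10. In H2-Aa they are the palindrome TGACGTCA, a cyclic AMP response element, present in 1.79% of all windows and in no other member window. The spacing between the capitals was 18 bases in H2-DMb1 and H2-Aa and 17 bases in H2-Eb1. The Y box core by itself is common, since 37.4% of all windows held CCAAT on either strand. The motifs were chosen after the windows had been seen, and a match of letters is a description of the sequence, not a bound site.

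The floxed genes were examined first, as a check of the label. In endothelial-like cells, Egln1 was at 67.2 UMIs per 1000000 UMIs of the class (CPM) in the Cre- library and at 203 CPM in the other, Egln3 at 25.9 and 162 CPM, and Egln2 at 44.1 and 39.5 CPM. Transcripts that lack a floxed exon are still counted, so these values cannot show whether an exon was lost, and the library is called the library labelled PHDTiEC below. The Cre- library held 136004367 UMIs over all barcodes and, after filtering, 8548 cells with a median of 7500 UMIs. The library labelled PHDTiEC held 146758812 UMIs over all barcodes and, after filtering, 9309 cells with a median of 7898 UMIs. The libraries shared 28 cell barcodes, against 11.7 expected by chance from the size of the kit's list. The cells were clustered without the class II genes, and the clusters were named by marker genes. Each name stands for cells like that type. Among the 5 main classes, the dendritic-like cells had 15 and 17 of their 17 markers in at least 10% of cells, and the macrophage-like (12 of 12), B-like (10 of 10), endothelial-like (14 of 14) and injured tubule-like cells (7 of 7) had all of theirs in each library. Barcodes under 100 UMIs, which hold free RNA and no cell, carried 3.55% and 4.15% of all UMIs, and their profile is the ambient level below.

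The dendritic-like cells had the highest class II level of the named classes in each library. The sum of the 6 members other than Ciita was 44261 CPM (95% Poisson interval 43979 to 44545) in the 199 dendritic-like Cre- cells and 44863 CPM (44607 to 45121) in the 247 of the library labelled PHDTiEC. The macrophage-like cells followed with 35805 CPM (35723 to 35887) in 2253 cells and 29839 CPM (29770 to 29908) in 2498 cells. The B-like cells were next, with 20814 CPM (20151 to 21493) in 69 cells and 21454 CPM (20725 to 22202) in 49 cells. This order of dendritic-like, macrophage-like and B-like cells by CPM was the same in the libraries, and the intervals of neighbours did not overlap. By the median over cells, macrophage-like cells stood above dendritic-like cells in the Cre- library (525 against 470 class II UMIs per 10000). In the library labelled PHDTiEC they stood below them (409 against 454). Monocyte-like cells, the precursors of tissue macrophages, stood far lower at 7334 and 7744 CPM. The 5 monocyte-like cells with the most class II UMIs gave 41.1% and 43.8% of that class total. The monocyte-like median was only 5.82 and 7.56 class II UMIs per 10000.

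The injured tubule-like and endothelial-like cells had lower levels, below that of the undiluted ambient profile. That profile, measured in barcodes without a cell, held 7649 and 7212 CPM of the class II sum, but only a part of the UMIs of a cell is ambient. Injured tubule-like cells, named by Havcr1, Krt20 and other injury genes, had 2956 CPM (2919 to 2992) and 2728 CPM (2692 to 2765). Proximal tubule-like (PT-like) cells outside that class, from the same clamped kidneys, had 2754 CPM (2722 to 2786) and 2600 CPM (2573 to 2628). This was close to the injured tubule-like cells but lower in each library. From the UMIs of neutrophil markers, taken as free RNA, the ambient part was estimated at 2.71% and 4.59% of the UMIs of injured tubule-like cells, which would give 207 and 331 CPM of the class II sum, and at 12.2% and 2.73% of those of PT-like cells, which would give 931 and 197 CPM. The measured levels were 14.3 and 8.25 times these in injured tubule-like and 2.96 and 13.2 times these in PT-like cells. Endothelial-like cells had 1445 CPM (1401 to 1490) and 2107 CPM (2061 to 2154), and the thick ascending limb-like (TAL-like) cells 687 and 823 CPM. For endothelial-like cells the same estimate was 26.2% and 10.9%, which would give 2005 and 783 CPM, and the measured levels were 0.72 and 2.69 times these. The estimate also counts neutrophil RNA from cells that share a droplet, and came to 110% in pericyte-like cells of the Cre- library, so it cannot be read as free RNA alone. The other named classes were fibroblast-like (4447 and 1942 CPM), neutrophil-like (4183 and 2222), pericyte-like (2670 and 2545), intercalated-like (2227 and 1264), T-like (1742 and 905), collecting duct-like (1133 and 738), distal convoluted tubule-like (536 and 644) and urothelial-like cells (410 and 343 CPM, the lowest). In the order of the 16 named classes, the only neighbours with overlapping intervals were PT-like and pericyte-like cells in each library, and neutrophil-like and endothelial-like cells in the library labelled PHDTiEC. Of 26 classes and unnamed clusters, 6 had a class II sum above the ambient level in each library: dendritic-like, macrophage-like and B-like cells and clusters 11, 18 and 27. Cluster 18 carried cycling genes with macrophage markers, cluster 11 erythroid and leukocyte transcripts at a low depth, and cluster 27 T cell with macrophage markers. Of the cells in cluster 27, 78.6% were among the 7% of barcodes with the highest doublet scores.

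**Figure D1:**
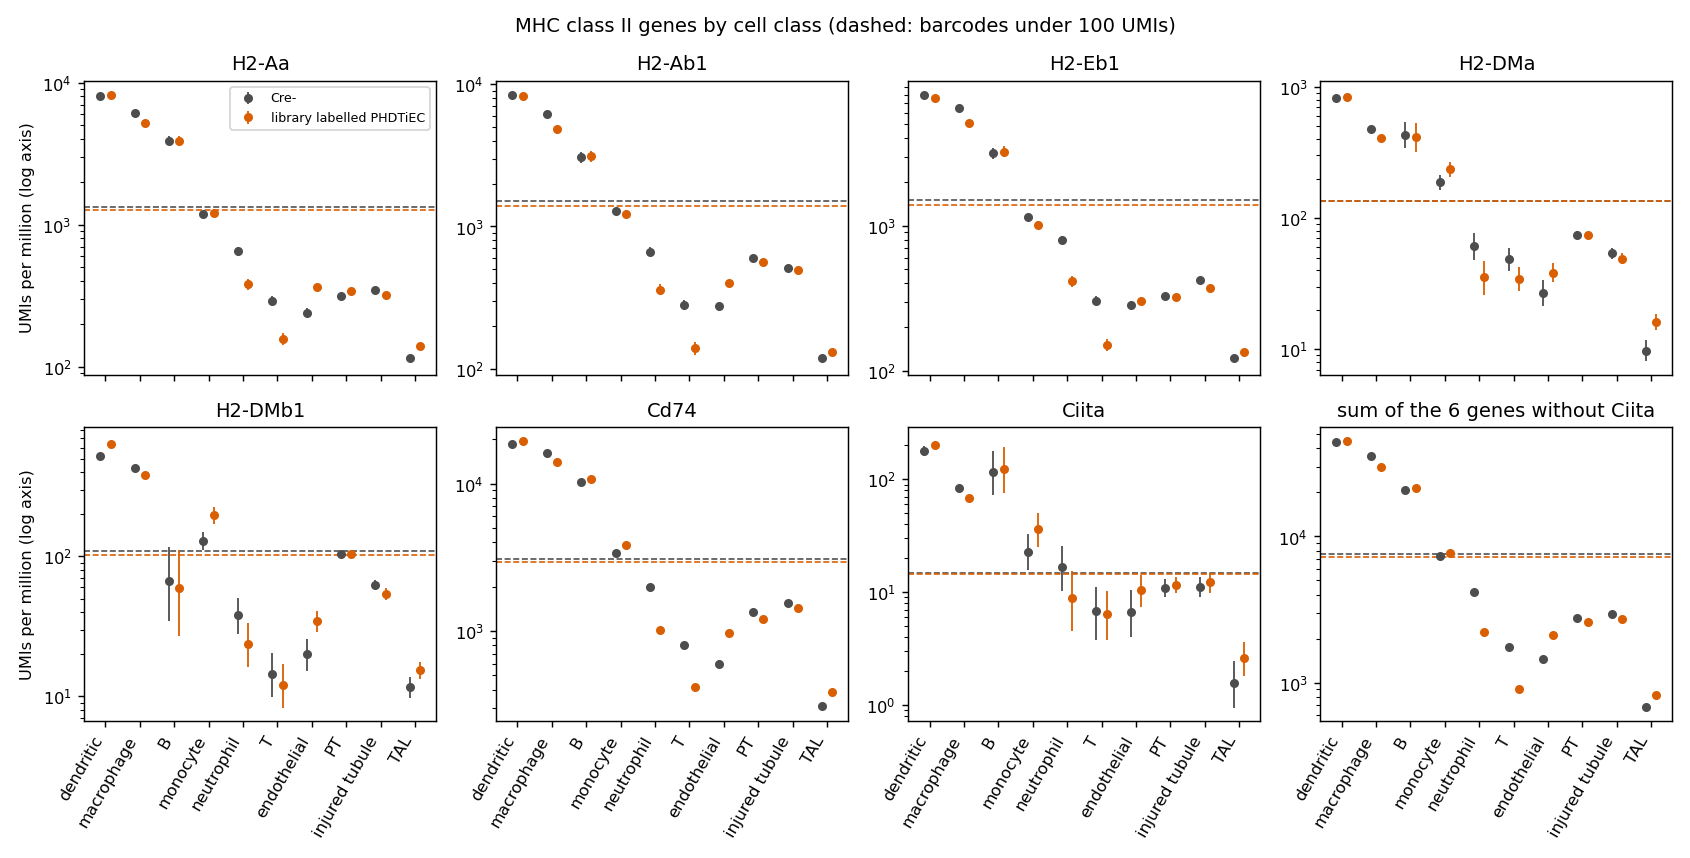
Level in CPM (log axis) of the 7 members and of the sum of the 6 without Ciita, by cell class, in the Cre- library (grey) and the library labelled PHDTiEC (orange). Points are sums over all cells of a class, bars are exact Poisson 95% intervals and dashed lines are the ambient level. Dendritic-like and macrophage-like cells lie above the dashed lines in every panel, B-like cells in every panel but that of H2-DMb1, and endothelial-like and tubule-like cells lie below them or, for H2-DMb1 in PT-like cells, at them.

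The macrophage-like cells, the most numerous of the 5 main classes, carried most of the class II UMIs. They held 68.9% (Cre-) and 67.9% (labelled PHDTiEC) of the class II UMIs of all cells. The dendritic-like cells held 8.87% and 11.1%, the injured tubule-like cells 2.35% and 2.01%, the endothelial-like cells 0.388% and 0.748% and the B-like cells 0.350% and 0.310%. For Ciita the share of the macrophage-like cells was lower, 61.5% and 55.9%, and that of the dendritic-like cells higher, 13.6% and 17.96%. Fewer cells of a type and less RNA per cell cannot be told apart in such shares.

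The peptide-binding chains were each highest, among the named classes, in the dendritic-like cells. H2-Aa was at 8008 and 8163 CPM there (17069 and 21384 UMIs), at 6139 and 5164 CPM in macrophage-like cells and at 3898 and 3914 CPM in B-like cells. H2-Ab1 was at 8365 and 8331 CPM in dendritic-like, 6154 and 4864 CPM in macrophage-like and 3066 and 3115 CPM in B-like cells. H2-Eb1 was at 7920 and 7552 CPM, 6482 and 5092 CPM, and 3150 and 3246 CPM in the same order. The libraries thus differed in the macrophage-like cells, where each chain was lower in the library labelled PHDTiEC, and hardly in the dendritic-like and B-like cells.

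Cd74 kept the same order of classes, with 18629 and 19339 CPM in dendritic-like, 16128 and 13931 CPM in macrophage-like and 10203 and 10707 CPM in B-like cells. In injured tubule-like cells it was at 1559 and 1439 CPM and in endothelial-like cells at 601 and 963 CPM, against an ambient level of 3063 and 2937 CPM. The endothelial-like level was thus the lowest of the 5 main classes for this gene.

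H2-DM had another order. H2-DMa was at 821 and 840 CPM in dendritic-like cells, at 475 and 405 CPM in macrophage-like cells and at 430 CPM (339 to 537) and 413 CPM (317 to 529) in B-like cells, where the interval overlapped that of the macrophage-like cells in each library. H2-DMb1 was at 518 and 639 CPM in dendritic-like cells and at 427 and 383 CPM in macrophage-like cells. In B-like cells it reached only 67.0 CPM (34.6 to 117, 12 UMIs) and 59.0 CPM (26.98 to 112, 9 UMIs), which is not distinguishable from the ambient level of 109 and 102 CPM or, by overlap of the intervals, from the injured tubule-like cells at 62.7 and 53.6 CPM. H2-DMa and H2-DMb1 encode the 2 chains of a single dimer, and in the B-like cells the β chain was largely that of H2-DMb2, described below.

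Ciita was sparse, with 1701 and 1644 UMIs in all macrophage-like cells. Its level was 177 CPM (159 to 196) and 202 CPM (185 to 219) in dendritic-like cells, 117 CPM (72.6 to 179, 21 UMIs) and 125 CPM (75.01 to 195, 19 UMIs) in B-like cells, and 83.1 CPM (79.2 to 87.1) and 68.4 CPM (65.1 to 71.8) in macrophage-like cells. The B-like interval overlapped that of the dendritic-like cells in each library, and that of the macrophage-like cells in the Cre- library. Injured tubule-like cells held 95 Ciita UMIs in each library (11.2 and 12.2 CPM) and endothelial-like cells 19 and 39 UMIs (6.65 CPM, 4.003 to 10.4, and 10.4 CPM, 7.40 to 14.2), against 14.9 and 14.5 CPM in the ambient profile. Among the named classes the dendritic-like cells thus had the highest CPM for the coactivator, as for its target genes. For Ciita a lead over the B-like cells is not shown, since the intervals overlapped.

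Within classes the cells were not alike. In macrophage-like cells the median was 525 class II UMIs per 10000 UMIs of a cell (Cre-) and 409 (labelled PHDTiEC), with 10th to 90th percentiles of 7.34 to 805 and 5.68 to 714. The class therefore held cells with nearly no class II RNA next to cells above the typical dendritic-like cell, whose median was 470 (132 to 670) and 454 (163 to 653). The share of cells above 100 per 10000 was 81.2% and 77.7% in macrophage-like and 91.96% and 95.1% in dendritic-like cells. B-like cells were the most even, with a median of 230 in each library and 10th to 90th percentiles of 158 to 335 and 150 to 324. The 2 macrophage-like clusters, led by Mrc1, Ccl8 and Ccl12 (cluster 0) and by Gpnmb, Mmp12 and Arg1 (cluster 1), accounted for part of the spread. Cluster 0, with 1605 and 1682 cells, had a class II sum of 55204 and 45267 CPM, above the dendritic-like cells, and cluster 1, with 648 and 816 cells, had 15989 and 15838 CPM.

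Endothelial-like cells showed the opposite picture. Their median was 2.05 class II UMIs per 10000 (Cre-) and 3.15 (labelled PHDTiEC), and 98 of 315 and 119 of 439 cells held no class II UMI. Only 9 and 13 cells exceeded 100 per 10000, yet the 5 cells with the most class II UMIs gave 46.2% and 31.2% of the class total. Injured tubule-like cells had higher medians of 20.6 and 15.7 and none without a class II UMI, and their top 5 cells gave 15.7% and 14.5%. In PT-like cells the medians were 17.8 and 17.1. The tubule-like level was hence spread over the cells, and the endothelial-like level rested on few of them.

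**Figure D2:**
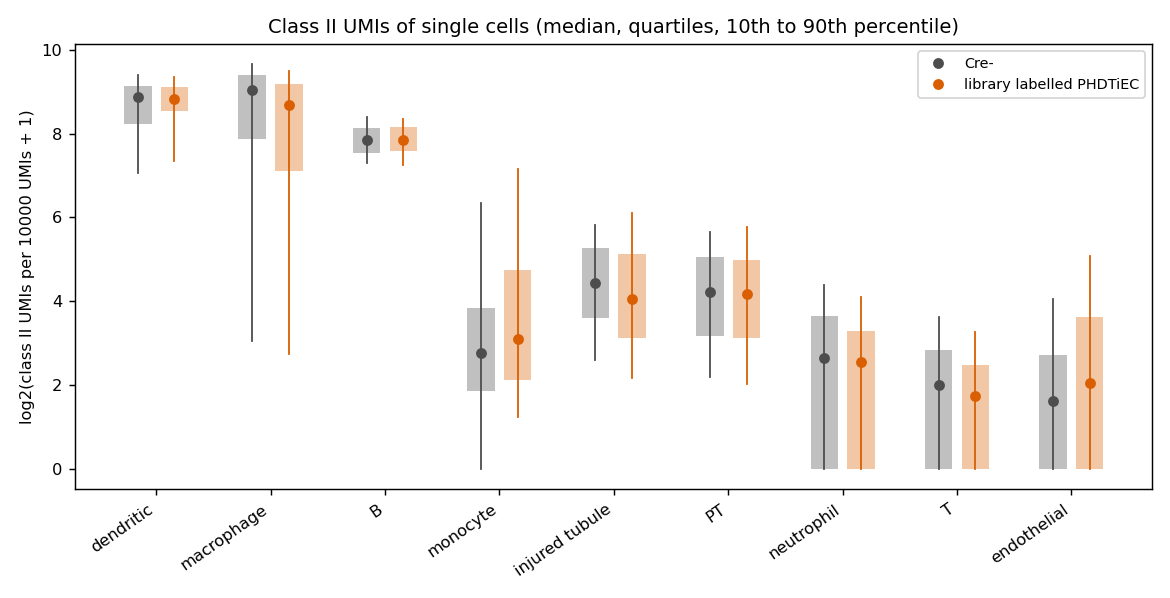
Class II UMIs (sum of 6 genes) per 10000 UMIs of a cell, on a log2 scale after adding 1, by cell class and library. Points are medians, boxes quartiles and lines the 10th to 90th percentile over cells. The macrophage-like lines reach from under 8 to over 700 per 10000, and the injured tubule-like medians of 20.6 and 15.7 stand above the endothelial-like medians of 2.05 and 3.15.

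Depth differs between classes, so the share of cells with a class II UMI was also taken at 2000 UMIs per cell. Dendritic-like and B-like cells were at 100% in each library, and macrophage-like cells at 94.2% and 93.3%. Injured tubule-like cells were at 90.3% (86.3 to 93.4) and 88.1% (83.7 to 91.7), and PT-like cells at 86.2% and 83.6%. Endothelial-like cells were at 44.1% (38.0 to 50.3) and 53.0% (47.7 to 58.1), after leaving out 52 and 67 shallower cells, against 68.9% and 72.9% without thinning. T-like cells, a type that makes little class II RNA in the mouse, were at 46.9% (42.5 to 51.3) and 40.7% (36.9 to 44.7), and TAL-like cells at 32.8% and 31.5%. The median depths before thinning were 5283 and 5596 UMIs in endothelial-like, 3153 and 3275 in T-like, 20827 and 21470 in injured tubule-like and 19460 and 25331 in TAL-like cells. The endothelial-like share of the Cre- library did not exceed that of the T-like cells, so it is not told from background, and the tubule-like shares exceeded that of the T-like cells in each library. In the library labelled PHDTiEC the endothelial-like interval lay above the T-like one. The ambient part was estimated at 9.05% and 7.94% of T-like UMIs, but from tubule markers, so it is not set against the endothelial-like estimate from neutrophil markers. For Ciita the thinned share was 34.4% and 29.0% in dendritic-like, 18.3% and 14.4% in macrophage-like and 26.5% and 25.6% in B-like cells, but 1.39% and 2.17% in injured tubule-like cells and 0 of 263 and 6 of 372 in endothelial-like cells, next to 0.772% and 0.951% in T-like cells.

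The members were not in the same proportion in every class. H2-Ab1 made up 50.1% (49.9 to 50.3) and 48.5% (48.3 to 48.7) of the H2-Ab1 and H2-Aa UMIs in macrophage-like cells, 51.1% and 50.5% in dendritic-like cells and 52.9% and 52.3% in the ambient profile. In PT-like cells it was 65.5% (64.5 to 66.4) and 62.2% (61.3 to 63.1), and in injured tubule-like cells 59.9% (58.8 to 61.03) and 60.6% (59.4 to 61.8). These were the only 2 of 25 other classes and clusters above the macrophage-like and ambient intervals in each library, and B-like cells, at 44.0% (41.2 to 46.8) and 44.3% (41.3 to 47.3), the only class below. The endothelial-like value of 53.3% (50.7 to 55.8) and 52.5% (50.6 to 54.3) included the ambient one.

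The invariant chain also differed between classes. Per 100 UMIs of H2-Aa there were 453 and 449 of Cd74 in injured tubule-like cells and 423 and 353 in PT-like cells. Macrophage-like cells had 263 and 270, dendritic-like cells 233 and 237, B-like cells 262 and 274, endothelial-like cells 250 and 264, and the ambient profile 229 and 233. Only fibroblast-like cells, at 295 and 298, also stood above the macrophage-like and ambient intervals in each library. Ciita per 100 UMIs of H2-Aa was 3.26 and 3.82 in injured tubule-like, 3.47 and 3.44 in PT-like, 2.21 and 2.47 in dendritic-like and 1.35 and 1.32 in macrophage-like cells, with 1.12 and 1.15 in the ambient profile. Relative to H2-Aa, the tubule-like cells thus had more H2-Ab1, Cd74 and Ciita UMIs than the macrophage-like cells or the ambient profile.

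The β chain of H2-DM differed most. H2-DMb2 is a second β chain gene beside H2-DMb1, and reads from stretches that these close copies share may be assigned to either or dropped. Per 100 UMIs of H2-DMb1, B-like cells held 625 UMIs of H2-DMb2 in the Cre- library (75 against 12 UMIs) and 878 in the library labelled PHDTiEC (79 against 9). Injured tubule-like cells held 79.7 and 77.4, PT-like cells 46.8 and 41.8, dendritic-like cells 34.0 and 29.3, and macrophage-like cells 1.90 in each. The ambient profile was at 13.3 and 11.3. Macrophage-like cells thus used H2-DMb1 almost alone, B-like cells mostly H2-DMb2, and the tubule-like and dendritic-like cells both genes. In endothelial-like cells 18 and 2 UMIs of H2-DMb2 stood against 57 and 129 of H2-DMb1.

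**Figure D3:**
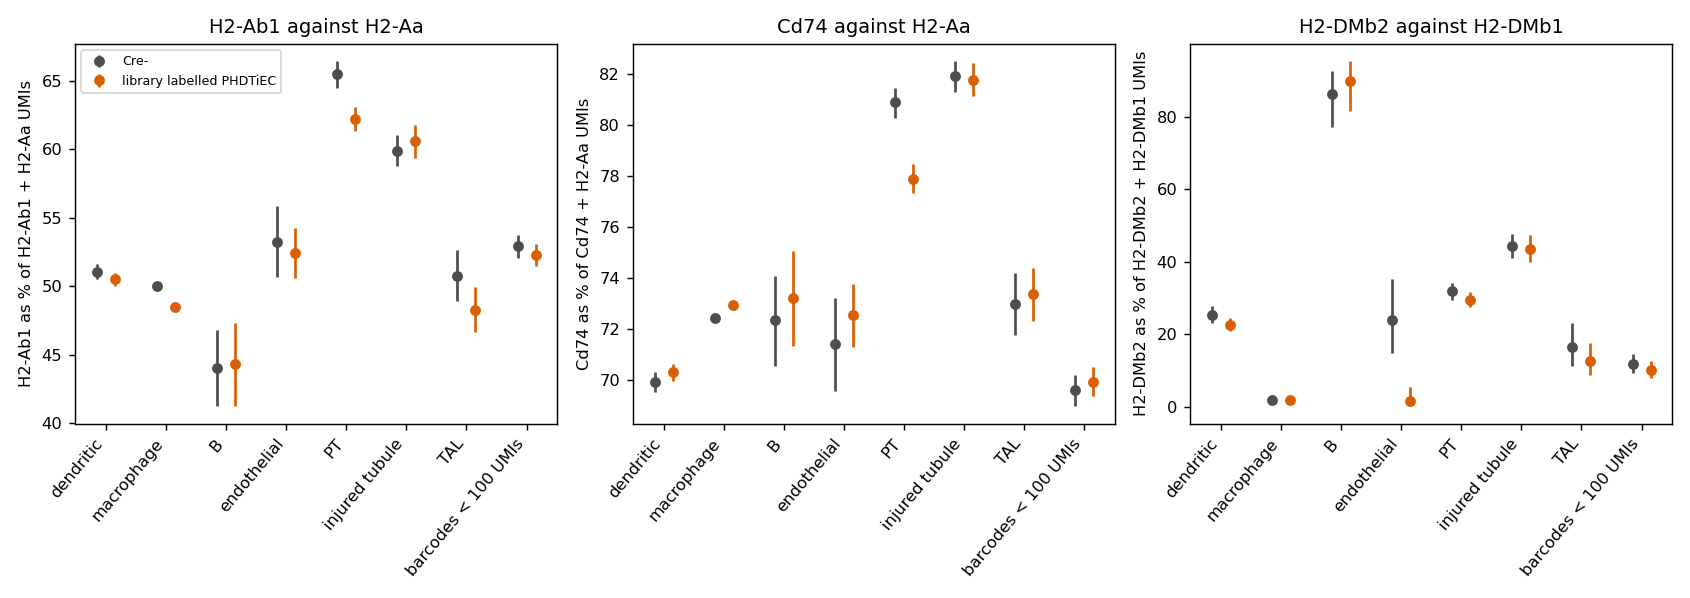
Share of H2-Ab1 among H2-Ab1 and H2-Aa UMIs (left), of Cd74 among Cd74 and H2-Aa UMIs (middle) and of H2-DMb2 among H2-DMb2 and H2-DMb1 UMIs (right), in percent, by class and library. Bars are exact binomial 95% intervals. PT-like and injured tubule-like cells stand above the ambient profile in all panels, B-like cells lie lowest on the left (44.0% and 44.3%) and highest on the right, and the left and middle axes do not start at 0.

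Dendritic-like cells were parted further by single transcripts. Cells with a UMI of Xcr1 or Clec9a, genes of cross-presenting conventional dendritic cells, numbered 70 and 84 and had a class II sum of 44395 and 43022 CPM. Cells with a UMI of Cd209a, a gene of monocyte-related and type 2 dendritic cells, numbered 40 and 62 and had 49772 and 48179 CPM. Cells with a UMI of Ccr7, Ccl22 or Fscn1, genes of mature migratory dendritic cells, numbered 35 and 32 and had 36107 and 41936 CPM, the lowest of the 3 gates in each library. Cells that also carried a gene of another gate were left out, so the gates share no cell. The mature gate had a low share of H2-Ab1 among the I-A chains (44.0% and 45.4%, against 53.3% and 51.8% in the Xcr1 or Clec9a gate). It also had few H2-DMa transcripts, 3.70 and 6.42 per 100 UMIs of H2-Aa against 12.5 and 11.5, and as many H2-DMb2 as H2-DMb1 UMIs in the Cre- library (52 of each) but 89 against 74 in the library labelled PHDTiEC.

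Between the libraries, the log2 ratio of the class II sum was farthest from 0, among the 5 main classes, in endothelial-like cells. Other named classes lay farther from 0, with -1.20 in fibroblast-like, -0.94 in T-like, -0.91 in neutrophil-like, -0.82 in intercalated-like and -0.62 in collecting duct-like cells, so a difference of this size was not particular to the endothelial-like cells. The T-like and neutrophil-like totals also rested on few cells. Their top 5 cells gave 52.7% and 55.8% of the T-like and 45.0% and 58.9% of the neutrophil-like total. The endothelial-like class II sum was 1445 and 2107 CPM, higher in the library labelled PHDTiEC, with a log2 ratio of 0.54 (95% interval 0.49 to 0.60). A gene counts as apart below when its ratio is at least 1.5-fold in either direction and it holds at least 100 UMIs over the libraries in the class. Of the 6 members with that many UMIs, 3 were apart, all higher in the library labelled PHDTiEC, against 7.1% of all 7419 such genes (4.04% higher and 3.06% lower). They were H2-Aa (240 and 364 CPM, log2 ratio 0.60, 0.47 to 0.73), Cd74 (601 and 963 CPM, 0.68, 0.60 to 0.76) and H2-DMb1 (19.9 and 34.4 CPM, 0.79, 0.33 to 1.26). Under 15 alternative settings H2-Aa stayed past 1.5-fold in 9, Cd74 in 12 and H2-DMb1 in 13, and each kept its sign in all 15. Without the 7% of barcodes with the highest doublet scores Cd74 had 0.57, and at a coarser clustering H2-Aa had 0.57. H2-Ab1 (274 and 402 CPM, 0.55, 0.43 to 0.68) and H2-DMa (26.9 and 38.4 CPM, 0.51, 0.10 to 0.93) were just under the limit. H2-Eb1, at 283 and 305 CPM, had a log2 ratio of 0.11 with an interval that held 0 (-0.02 to 0.24), and Ciita, with 19 and 39 UMIs, had 0.65 (-0.18 to 1.52). Without the highest doublet scores H2-Eb1 turned to -0.35 and Ciita was at 0.02. The median of the 6 members was 0.58, against 0.02 for all genes.

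The endothelial-like difference was seen in each of the 2 clusters of the class. In cluster 15, with marker genes of medullary endothelium, the class II sum was 1344 and 1921 CPM (log2 ratio 0.51), and in cluster 19, with those of cortical endothelium, 1610 and 2492 CPM (0.63). H2-Eb1 parted from the others in cluster 15, where it was lower in the library labelled PHDTiEC (281 and 244 CPM, -0.20, -0.37 to -0.03), and not in cluster 19 (286 and 429 CPM, 0.59, 0.38 to 0.79). In the whole class H2-Eb1 made up 54.0% and 45.5% of the H2-Eb1 and H2-Aa UMIs, against 52.9% and 52.5% in the ambient profile.

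All endothelial-like values lie below the undiluted ambient level, and leukocyte transcripts were present in these cells. Markers of other classes were counted beside them. The 13 genes of a leukocyte list summed to 2142 CPM (Cre-) and 2409 CPM (labelled PHDTiEC) over the endothelial class, with 11 and 9 of the 13 genes in at least 10% of cells and none at 0, against 42722 and 44381 CPM in macrophage-like cells. The 12 macrophage markers summed to 793 and 867 CPM, with none at 0. Cells with no UMI of the leukocyte list numbered 85 and 136 and had a class II sum of 265 CPM (95 UMIs) and 754 CPM (502 UMIs), a log2 ratio of 1.51 (1.19 to 1.84), at median depths of 2948 and 3458 UMIs. Cells with such a UMI had 1614 and 2399 CPM (0.57, 0.52 to 0.63). The difference of the sum was thus larger in the cells without leukocyte UMIs, at a lower level, where H2-DMa (4 and 6 UMIs) and Ciita (1 UMI in each library) had log2 ratios below 0, -0.31 and -0.89, and without the 5 cells richest in class II in each library it was 0.89 over the class. In the cells without leukocyte UMIs H2-Ab1 was 67.4% (29 against 14 UMIs) and 62.0% (137 against 84 UMIs) of the I-A chains. The ambient estimate of 26.2% and 10.9%, which shared droplets can raise, was unequal between the libraries, and subtracting it took the Cre- level below 0. Without the highest doublet scores the log2 ratio of the sum was 0.45.

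**Figure D4:**
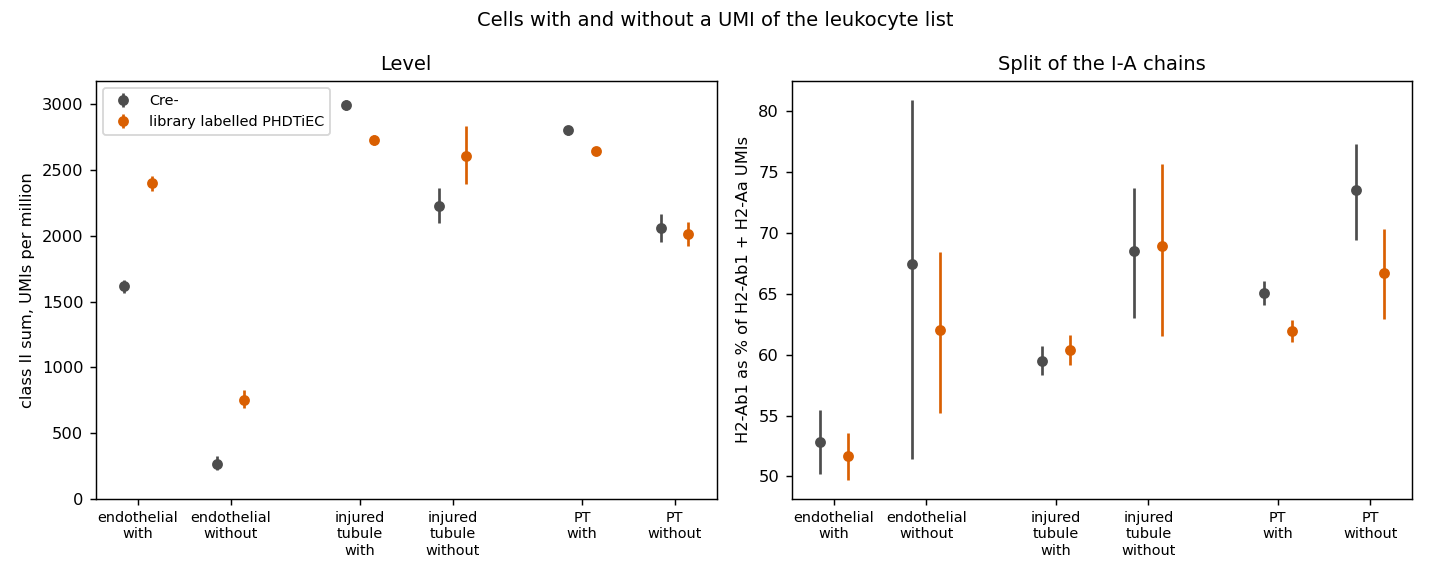
Class II sum in CPM (left) and share of H2-Ab1 among the I-A chains in percent (right) for cells with and without a UMI of the 13 leukocyte genes. Bars are exact Poisson (left) and exact binomial (right) 95% intervals. Endothelial-like cells without such UMIs dropped to 265 and 754 CPM, and injured tubule-like and PT-like cells without them stayed above 2000 CPM.

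In the tubule-like classes most of the class II level was kept by cells without leukocyte UMIs. Injured tubule-like cells without them numbered 29 and 16 and had 2227 CPM (2094 to 2367) and 2606 CPM (2393 to 2832), next to 2998 and 2732 CPM in those with them. PT-like cells without them numbered 53 and 81 and had 2057 and 2015 CPM, next to 2802 and 2644 CPM. The share of H2-Ab1 among the I-A chains was 68.5% and 68.9% in the injured tubule-like and 73.5% and 66.7% in the PT-like cells without leukocyte UMIs. The leukocyte list summed to 503 and 787 CPM in injured tubule-like cells, with none of its 13 genes at 0, and the 12 macrophage markers to 236 and 289 CPM.

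Injured tubule-like cells differed little between the libraries. The class II sum had a log2 ratio of -0.12 (-0.14 to -0.09), and 0 of 7 members were apart, against 4.76% of 9975 genes (3.42% higher and 1.34% lower). Values ran from -0.23 for H2-DMb1 (62.7 and 53.6 CPM) to 0.13 for Ciita (-0.30 to 0.55). In the 29 and 16 cells without leukocyte UMIs the ratio of the sum had the other sign, 0.23 (0.08 to 0.38), while Ciita had only 2 and 1 UMIs there. The richest of these cells alone gave 16.1% and 26.7% of their class II UMIs, so this sign rests on few cells. Over the whole class the median of the members was -0.12 and that of all genes 0.04.

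Macrophage-like cells held less class II RNA in the library labelled PHDTiEC. All 7 members were lower there, with log2 ratios from -0.35 for H2-Eb1 (6482 and 5092 CPM) to -0.16 for H2-DMb1 (427 and 383 CPM), and Ciita at -0.28 (-0.38 to -0.18). The sum had -0.26 (-0.27 to -0.26). None of the 7 was apart, against 2.16% of 10302 genes (1.17% higher and 0.99% lower), and the median of the members was -0.25 and that of all genes 0.04. The difference of the sum lay mainly in the Mrc1 cluster (cluster 0), where the sum had a log2 ratio of -0.29, with each member between -0.37 for H2-Ab1 and -0.23 for H2-DMb1 and Ciita. In the Gpnmb cluster (cluster 1) the sum had -0.01 (-0.02 to -0.00), with Cd74 at 0.02 and Ciita at -0.27 (-0.46 to -0.07). H2-Ab1 (-0.06), H2-Eb1 (-0.09) and H2-DMa (-0.10) were also lower in this cluster. H2-Aa (0.01) and H2-DMb1 (0.05) had intervals there that held 0. This cluster held 648 of 2253 and 816 of 2498 macrophage-like cells, and with the clusters weighted alike in the libraries the log2 ratio of the sum was -0.22.

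Dendritic-like and B-like cells had nearly equal levels in the libraries. In dendritic-like cells the sum had a log2 ratio of 0.02 (0.01 to 0.03), and the members lay between -0.07 for H2-Eb1 and 0.30 (0.19 to 0.41) for H2-DMb1, with Ciita at 0.19 (-0.00 to 0.38). None of 7 was apart, against 7.04% of 4700 genes (4.38% higher and 2.66% lower), and the median of the members was 0.03 and that of all genes 0.05. Within the mature gate of 35 and 32 cells, H2-DMa was at 270 and 526 CPM (0.96, 0.57 to 1.36) and H2-DMb1 at 158 and 263 CPM (0.74, 0.21 to 1.28), while in the Xcr1 or Clec9a gate H2-DMa had -0.14 (-0.27 to -0.00). In B-like cells the sum had 0.04 (-0.02 to 0.11), and none of the 5 members with 100 UMIs was apart, against 5.41% of 314 genes (2.55% higher and 2.87% lower). Across all 26 classes and clusters the sum was higher in the library labelled PHDTiEC in 10 and lower in 16, with log2 ratios from -1.26 to 0.84.

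**Figure D5:**
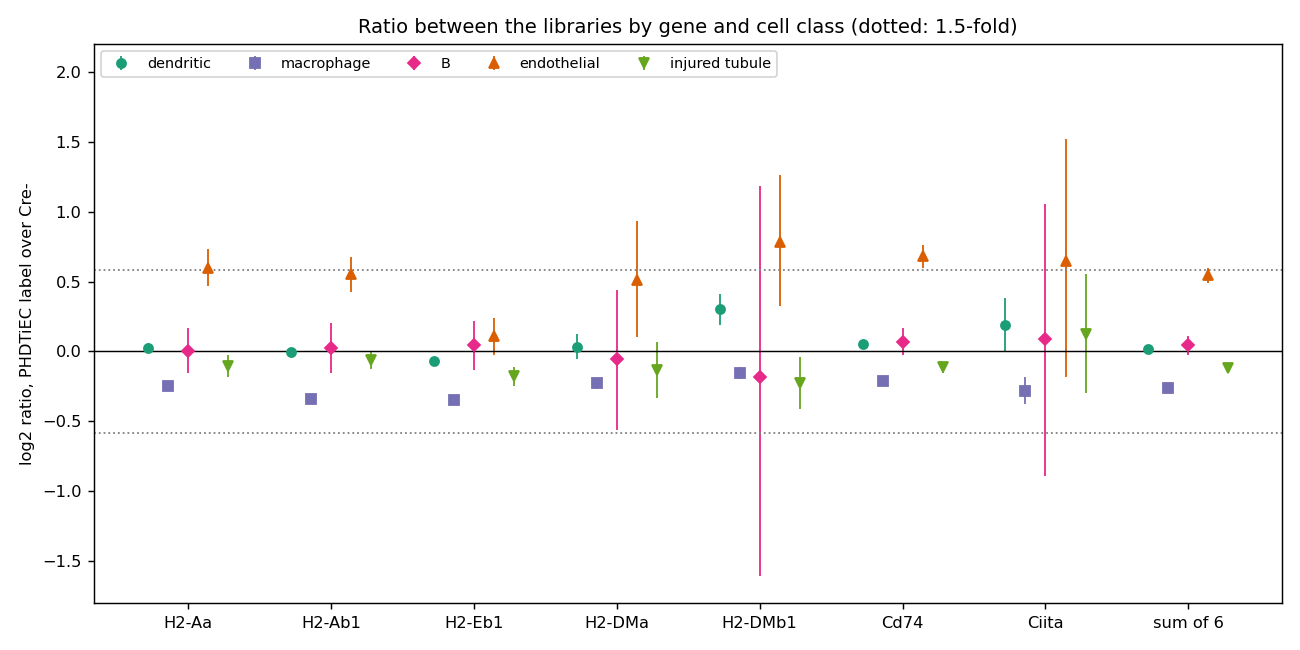
Log2 ratio of CPM, the library labelled PHDTiEC over the Cre- library, for each member and the sum of 6, in the 5 main classes. Bars are exact binomial 95% intervals for counting error, dotted lines mark 1.5-fold. Endothelial-like cells lie above 0 for all members, though the intervals of H2-Eb1 and Ciita reach it and H2-Eb1 turned to -0.35 without the highest doublet scores, macrophage-like cells lie below 0 for all members, and B-like intervals for H2-DMb1 and Ciita are wide (12 and 9, and 21 and 19 UMIs).

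Of the remaining class II chains, H2-Oa and H2-Ob were higher in dendritic-like and B-like than in macrophage-like cells. H2-Oa and H2-Ob form H2-DO, which restrains H2-DM. H2-Oa was at 156 and 148 CPM in dendritic-like and 290 and 262 CPM in B-like cells but at 2.73 and 2.37 CPM in macrophage-like cells. H2-Ob was at 90.5 and 96.6 CPM, 313 and 374 CPM, and 4.64 and 3.54 CPM in the same order. H2-Eb2, a second I-E β chain gene, was at 45.0 and 25.6 CPM in dendritic-like cells, a log2 ratio of -0.82, and was the only one of the 4 further chains apart there (0 higher, 1 lower). In macrophage-like cells 0 of 3 and in B-like cells 0 of 2 of these genes were apart. Of all genes, 7.04% were apart in dendritic-like, 2.16% in macrophage-like and 5.41% in B-like cells.

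Genes that process class II molecules were apart in a few cases. Of 8 such genes in dendritic-like cells, 2 were higher in the library labelled PHDTiEC and none lower: Ctsl, a lysosomal protease, at 69.4 and 160 CPM (log2 ratio 1.21), and Ctsd, another, at 74.1 and 122 CPM (0.72). These levels are below those of the ambient profile, which held 900 and 877 CPM of Ctsl and 1313 and 1329 CPM of Ctsd. Ctss, the protease that degrades the invariant chain in presenting cells, was higher in that library in each main class. It was at 436 and 728 CPM in B-like cells (0.74, 0.31 to 1.18) and at 49.2 and 79.5 CPM in injured tubule-like cells (0.69, 0.51 to 0.87), where it was the gene apart among 3 and among 7, against 665 and 771 CPM in the ambient profile. In dendritic-like cells Ctss was at 1021 and 1286 CPM (0.33), in endothelial-like cells at 131 and 174 CPM (0.40) and in macrophage-like cells at 3934 and 4719 CPM (0.26). In endothelial-like cells 0 of 7 and in macrophage-like cells 0 of 8 of these genes were apart. Of all genes, 7.04% were apart in dendritic-like, 5.41% in B-like, 4.76% in injured tubule-like, 7.1% in endothelial-like and 2.16% in macrophage-like cells. March1 and Cd83, which set the turnover of class II at the surface, had log2 ratios of 0.20 and -0.02 in dendritic-like cells.

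The genes upstream of Ciita differed little. Ifng was not seen in dendritic-like, macrophage-like, B-like or injured tubule-like cells (0 UMIs in each library) and had 0 and 3 UMIs in endothelial-like cells, while T-like cells, which make interferon-γ, held 145 and 207 UMIs (65.8 and 78.2 CPM). Socs1, a feedback inhibitor of interferon signalling, was the gene of this list apart, higher in endothelial-like (30.8 and 53.6 CPM, log2 ratio 0.80) and dendritic-like cells (18.3 and 27.5 CPM, 0.59) of the library labelled PHDTiEC and lower in its injured tubule-like cells (17.1 and 10.8 CPM, -0.66). Irf1, an interferon-induced transcription factor, was at 147 and 141 CPM in endothelial-like cells (-0.06, -0.25 to 0.13). In each of these 3 classes 1 of 7 genes was thus apart, and 0 of 7 in macrophage-like cells. The shares of all genes apart were 7.1% in endothelial-like, 7.04% in dendritic-like, 4.76% in injured tubule-like and 2.16% in macrophage-like cells. Among the subunits of RFX, NF-Y and CREB that hold the X and Y boxes, 0 of 3 genes were apart in dendritic-like, 0 of 7 in macrophage-like, 0 of 5 in endothelial-like and 0 of 7 in injured tubule-like cells.

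Costimulation and class I genes gave other values than class II in the dendritic-like cells. Of 5 costimulatory genes, 2 were lower in the library labelled PHDTiEC, Cd40 at 69.0 and 27.1 CPM (log2 ratio -1.35) and Cd274, the inhibitory ligand PD-L1, at 66.6 and 36.3 CPM (-0.88). None of 5 was apart in macrophage-like and none of 2 in endothelial-like cells. The shares of all genes apart were 7.04% in dendritic-like (2.66% lower), 2.16% in macrophage-like, 7.1% in endothelial-like and 4.76% in injured tubule-like cells. The class I genes, which present peptides made inside the cell, had a median log2 ratio of -0.38 in dendritic-like cells (8 genes, -0.49 to -0.20, 0 apart). In endothelial-like cells their median was 0.15 (8 genes, 0.04 to 0.37, 0 apart), with H2-K1 at 1195 and 1537 CPM (0.36), next to 0.58 for the class II members. In macrophage-like cells it was 0.04 (9 genes, 0 apart) and in injured tubule-like cells -0.08 (8 genes, 0 apart).

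Across the 26 classes and clusters of the libraries (52 points, 15780 genes), the genes whose level on the scale log2(CPM + 10) was most like that of the class II sum were sought by Pearson's r. Outside the sum itself, Ciita was first (r = 0.94). It was followed by Cd83 (0.94), Ly86 (0.94), Cd86 (0.91), Lat2 (0.90), Pld4 (0.90), Fcgr2b (0.90), Irf8 (0.90), Cd72 (0.89) and Fgd2 (0.88). H2-DMb1, which is part of the sum, had 0.94, below the other 5 members of the sum (0.98 to 1.00). The points share libraries and free RNA, so r is given as a description.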

How the data were processed

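Droplet single-cell RNA-Seq (10X Genomics Chromium, 3′ ends, with UMIs) gave 1 library per genotype. The deposited values are raw UMI counts per gene and barcode, for barcodes of the whole kit list, which the authors made with Cell Ranger (version 4 per the file headers, genome mm10 per the labels). Strand use in counting and other settings are not given in the sources used here. All value columns were used (0 left out).

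Barcodes with 500 to 100000 UMIs, at least 200 genes and at most 50% mitochondrial UMIs were kept (8548 and 9309). Clusters came from Seurat 5.3.0 (R 4.3.3) with 2000 variable genes less 7 of the class II lists, which left 1993 (none of the members was among them), 20 principal components and a resolution of 0.8. The 28 clusters gave 26 classes, 16 of them named by judgement from marker lists. The automatic Scrublet threshold (scanpy 1.11.5) called 0 doublets, so no barcode was removed. UMIs were added up per class and library and scaled to the total of the class (CPM), and differences are log2 ratios of CPM with exact binomial (Clopper-Pearson) intervals. A UMI counts 1 captured molecule. A class share rests on the depth given in the report, and Poisson intervals widen below 100 UMIs. The ratios, the intervals of ratios and splits, and the search for genes like the sum were tested on simulated data without spread between cells. Clustering, naming, ambient estimates, doublet scores and thinning were not tested in this way. Python 3.11.15, numpy 2.4.6 and scipy 1.17.1 were used, with edgeR 4.0.16 for TMM scaling as an alternative.

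With 1 library per group no test was made. The members, marker lists and gene lists were chosen with earlier results of these data known. The text names all members, the genes of the lists, the 10 genes most like the class II sum and the floxed genes. The dendritic-like gates and the promoter motifs were chosen after values or windows had been seen. H2-DMa overlaps Brd2 and CR974462.4 on the other strand and CR974462.3 on its own, Ciita overlaps Dexi and H2-Eb1 overlaps Gm20513, both on the other strand, so reads in the overlaps are uncertain. The alternatives were other scalings, clusterings, filters on cells, doublet removal and ambient subtraction.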

Additional observations from a re-analysis of the deposited data

Results flagged for a closer look

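The log2 ratio of the class II sum had opposite signs in endothelial-like and macrophage-like cells. For the library labelled PHDTiEC over the Cre- library it was 0.54 in the former and -0.26 in the latter, and they differ by 0.81. It drew attention because all members lay above 0 in the former and below 0 in the latter, although H2-Eb1 turned to -0.35 in endothelial-like cells without the highest doublet scores, and H2-DMa to -0.31 and Ciita to -0.89 in those without leukocyte UMIs. The difference was not tested, since each genotype is 1 mouse. The ambient part of the endothelial-like UMIs, estimated from neutrophil markers, which cells sharing a droplet can raise, was 26.2% and 10.9%, which would give 2005 and 783 CPM of the class II sum, against 1445 and 2107 CPM measured.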

How the results depend on the processing

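No paired analysis was possible because each group is 1 library and the labels give no replicate numbers. The log2 ratio of the class II sum kept its sign in endothelial-like (15 of 15 settings, 0.37 to 1.51) and macrophage-like cells (16 of 16, -0.30 to -0.01), in injured tubule-like cells in 13 of 14, in dendritic-like cells in 11 of 13 and in B-like cells in 9 of 13. The values that moved by more than their counting interval were these. Without mitochondrial and ribosomal genes, macrophage-like cells had -0.29. TMM scaling gave -0.11 in B-like, -0.024 in dendritic-like, -0.17 in injured tubule-like and -0.28 in macrophage-like cells. With all variable genes in the clustering, dendritic-like cells had 0.033 and injured tubule-like cells -0.081, and at a resolution of 0.4 dendritic-like cells had 0.044 and macrophage-like cells -0.25. At that resolution there was no injured tubule-like class. Ambient subtraction gave -0.20 in injured tubule-like and -0.27 in macrophage-like cells, and took the Cre- endothelial-like level below 0, so that no ratio could be given; with tubule markers in place of neutrophil markers, an alternative added after seeing the data, it gave none for the sum either. Over 15 settings the endothelial-like H2-Aa stayed past 1.5-fold in 9, Cd74 in 12 and H2-DMb1 in 13. Without leukocyte UMIs, endothelial-like cells had 1.51 and injured tubule-like cells 0.23. A minimum complexity of 0.8 gave -0.047 in B-like and -0.27 in macrophage-like cells. Classes set from the marker UMIs of each barcode gave -0.20 in B-like, -0.14 in dendritic-like, 0.37 in endothelial-like, -0.0043 in injured tubule-like and -0.23 in macrophage-like cells. The mean over cells gave 0.046 in dendritic-like, 0.48 in endothelial-like, -0.089 in injured tubule-like and -0.30 in macrophage-like cells. Without the richest cell of each library, injured tubule-like cells had -0.087. The alternatives that follow were added after seeing the data. Without the 5 richest cells, endothelial-like cells had 0.89 and injured tubule-like cells -0.082. Without the 7% of barcodes with the highest doublet scores, taken because the automatic threshold called none, B-like cells had -0.047, endothelial-like 0.45, injured tubule-like -0.066 and macrophage-like -0.28. Macrophage-like cluster 0 alone had -0.29, cluster 1 -0.014, and both at equal shares -0.22. The cause of these moves was not tested. Thinning to 2000 UMIs moved 55 of 80 shares of cells. Ranking the classes by the mean over cells in place of CPM moved 54 of 80 ranks. An ambient limit of 50 UMIs in place of 100 moved all 16 ambient levels, to 10424 and 10143 CPM for the sum. With 1 mouse per genotype, the spread between mice is unknown, and in B-like cells 12 and 9 UMIs of H2-DMb1 and 21 and 19 of Ciita limit what can be seen.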
